A study of Sus scrofa with 5 samples.

Results

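The liver miRNA miR-122 and the gut and liver miRNAs miR-192, miR-194 and miR-215 were followed across pig embryos and cultured cells. They were chosen by name, as every mature miRNA listed in the table of reported miRNAs as ssc-miR-122, ssc-miR-192, ssc-miR-194, ssc-miR-194a, ssc-miR-194b or ssc-miR-215, with or without an arm ending. This gave 6 of the 411 mature names in that table, and 5 of the 6 were among the 327 names with a read in any library. ssc-miR-194b-3p had no read in any of the 5 libraries and was not analysed further.

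Small RNA was sequenced from parthenogenetic blastocysts (BLs), embryos that develop from oocytes activated without sperm and were collected on day 7, as 2 libraries (BL_1 and BL_2) from embryos given 10% fetal bovine serum from day 4. The other libraries were 1 of embryonic stem cell-like (ES-like) cells, 1 of embryoid bodies aggregated from them (PEBs) and 1 of fetal fibroblasts (PFFs). ES-like cells were derived from blastocysts and kept on mouse embryonic fibroblast feeder cells in medium with 15% serum, 40 ng/ml stem cell factor and 20 ng/ml basic fibroblast growth factor. PEBs were hanging-drop cultures of ES-like cell colonies without these cytokines, and PFFs came from fetuses of about 30 days, without head, limbs and internal organs, in medium with 10% serum. With 1 library each, the 3 cultured cell types were compared with one another by counting error only, and in bulk RNA a smaller number of cells with a miRNA cannot be told apart from less of it per cell.

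miRNAs are short RNAs that guide Argonaute proteins to partly complementary messenger RNAs, and bases near their 5′ end, the seed, set most of the pairing. miR-122 is best known as the dominant miRNA of hepatocytes, where it acts in lipid metabolism. miR-192 and miR-215 share a seed and are known from gut, liver and kidney epithelium, and miR-194, with a seed of its own, is transcribed together with them. The tumour suppressor p53 is a known regulator of miR-192, miR-194 and miR-215. In the RefSeq pig annotation (Sscrofa11.1), MIR194A and MIR192 are direct neighbours between ATG2A and EHD1, MIR215 and MIR194B are direct neighbours within IARS2, and MIR122 lies before NEDD4L with no other miRNA gene next to it. The counts were made on another build, Sscrofa10.2, so no coordinates are given.

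Levels are counts of a miRNA per 1000000 mature miRNA reads of its library (RPM), with 95% exact binomial intervals for counting error only. BL_1 was the shallowest library, with 113743 such reads, and PFFs the deepest, with 27071931. The 3 counts that an observed 0 allows are 26.4 RPM in BL_1 and 0.111 RPM in PFFs. The read summary supplied with the study lists the totals of ES-like cells and PFFs in exchanged order compared with the columns of the count table. The columns carry the names given in the sample titles and were used as labelled. The 10 names of 6 mesenchymal and fibroblast miRNAs summed to 758891 RPM in PFFs, 401303 in PEBs, 239616 in ES-like cells, 39044 in BL_1 and 70321 in BL_2, and all 10 had reads in each of the 3 cultured libraries. miR-21, which is among them, alone held 52.3% of the reads in PFFs and 18.9% in PEBs. Its log2 ratio of BLs to PFFs was -3.27, against -6.86 and -12.29 for the arms of miR-145, -8.47 for miR-199b-5p and -10.49 for miR-214. miR-199a-3p and miR-199b-3p had equal log2 ratios in each pair of cell types, such as -8.38 for BLs to PFFs. The mesenchymal and fibroblast sums may thus hold the same reads under both names. Of 8 markers of pluripotent cells only ssc-miR-371-5p had a row, with 324635 and 296148 RPM in BL_1 and BL_2 and 30.9 RPM in ES-like cells, against 0.505 in PEBs and 0.185 in PFFs. Blood cell markers stayed at or below 106 RPM in sum in every library. The 2 epithelial marker names with a row summed to 4748 and 5777 RPM in BL_1 and BL_2. Their sum was 1220 RPM in ES-like cells and 789 in PEBs, against 0.776 in PFFs, so this sum was also lowest in PFFs. The names went opposite ways between BLs and ES-like cells. miR-429 had 0 and 23.4 RPM in BL_1 and BL_2, against 1199 in ES-like cells and 718 in PEBs. miR-205 had a log2 ratio of -7.96 for ES-like cells to BLs.

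The members were high in ES-like cells and PEBs, lower in BLs and near their lowest in PFFs. Together they held 10.8% of all mature miRNA reads in ES-like cells and 5.74% in PEBs, against 0.196% in BL_1, 0.14% in BL_2 and 0.00195% in PFFs. Nearly all of these reads in ES-like cells and PEBs were miR-122.

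ssc-miR-122 had 857419 reads in PEBs, 643647 in ES-like cells, 2328 and 201 in BL_2 and BL_1, and only 112 in PFFs. Its level was 101004 RPM (100770 to 101238) in ES-like cells, where it was the third most abundant of 309 miRNAs with reads, and 54096 RPM (53985 to 54207) in PEBs, where it was the fifth of 306. In BLs it was 1767 RPM (1531 to 2029) in BL_1 and 837 RPM (803 to 871) in BL_2, a mean of 1302 ± 658 RPM (SD, n = 2). PFFs stood apart with 4.14 RPM (3.41 to 4.98), rank 225 of 315. No interval of the 5 libraries overlapped another, the order was ES-like cells, PEBs, BL_1, BL_2 and PFFs, and the BL libraries differed 2.11-fold from each other.

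ssc-miR-192, the more abundant member of the pair with the shared seed, had 42009 reads in PEBs, 37764 in ES-like cells, 1410 and 19 in BL_2 and BL_1, and 228 in PFFs. Its level was 5926 RPM (5867 to 5986) in ES-like cells and 2650 RPM (2625 to 2676) in PEBs. It was 507 RPM (481 to 534) in BL_2, 167 RPM (101 to 261) in BL_1 and 8.42 RPM (7.36 to 9.59) in PFFs. The order of the cell types was that of miR-122, but the BL libraries were exchanged: miR-192 was 3.03-fold (1.94 to 5.06) higher in BL_2 than in BL_1. Its mean over BLs was 337 ± 240 RPM (SD, n = 2). Among the 120 miRNAs with at least 10 reads in both BL libraries, 81.7% differed by less than 2-fold between them, and miR-122 and miR-192 belonged to the rest, in opposite directions.

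ssc-miR-194a, the neighbour of miR-192 in the genome, had 7946 reads in PEBs, 5068 in ES-like cells, 116 and 3 in BL_2 and BL_1, and 81 in PFFs. Its level was 795 RPM (774 to 818) in ES-like cells, 501 RPM (490 to 513) in PEBs and 2.99 RPM (2.38 to 3.72) in PFFs. BL_1 with 26.4 RPM (5.44 to 77.1) and BL_2 with 41.7 RPM (34.5 to 50.0) did not differ beyond counting error.

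ssc-miR-215 had 2257 reads in PEBs, 1730 in ES-like cells, 33 and 0 in BL_2 and BL_1, and 81 in PFFs. It reached 271 RPM (259 to 285) in ES-like cells, 142 RPM (137 to 148) in PEBs, 11.9 RPM (8.16 to 16.7) in BL_2 and 2.99 RPM (2.38 to 3.72) in PFFs. The depth of BL_1 allows up to 26.4 RPM, so BL_1 cannot be ordered against BL_2 or PFFs. In PFFs the count of miR-215 was the same as that of miR-194a.

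ssc-miR-194b-5p, the neighbour of miR-215, was the rarest member with reads. PEBs and ES-like cells gave 39 reads each, PFFs 25 and BLs none. Its levels were 6.12 RPM (4.35 to 8.37) in ES-like cells, 2.46 RPM (1.75 to 3.36) in PEBs and 0.924 RPM (0.598 to 1.36) in PFFs, the same order as the other members. In ES-like cells it was at least 5.68-fold higher than the limit of 1.08 RPM in BL_2, while the limit of BL_1 lay above every measured level of it. miR-194a and miR-194b-5p are close relatives, and how the authors assigned reads that match both is not given in the sources used here.

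**Figure D1:**
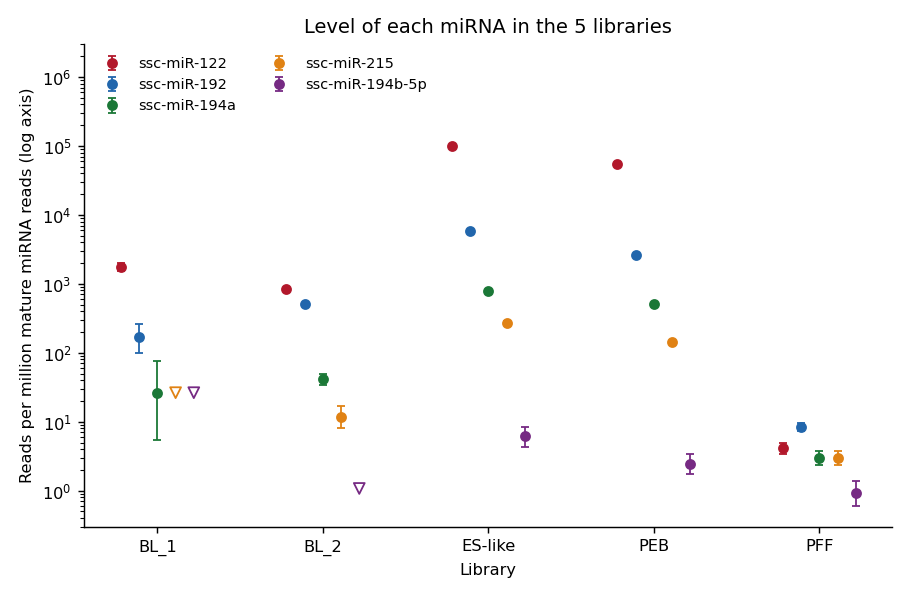
Level of each miRNA in RPM (log axis) in the 5 libraries, with 95% exact binomial intervals; open triangles mark libraries without a read, at the limit of 3 counts. miR-122 spans from 101004 RPM in ES-like cells to 4.14 RPM in PFFs, and the 5 miRNAs lie within 0.924 to 8.42 RPM in PFFs.

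The ratio of ES-like cells to PFFs shrank with the level of the member in ES-like cells. All 5 lay between 0.924 and 8.42 RPM in PFFs, so this order largely repeats that of their levels in ES-like cells. From PFFs to ES-like cells miR-122 differed 24414-fold (20290 to 29651), miR-192 704-fold (618 to 805), miR-194a 266-fold (213 to 335), miR-215 90.7-fold (72.6 to 115) and miR-194b-5p 6.63-fold (3.91 to 11.4). These intervals do not cover the choice of scaling: with TMM factors the log2 ratios were 13.18 in place of 14.58 for miR-122, 8.06 in place of 9.46 for miR-192, 6.66 in place of 8.05 for miR-194a, 5.11 in place of 6.50 for miR-215 and 1.33 in place of 2.73 for miR-194b-5p. On RPM all 5 were thus more than 2-fold higher in ES-like cells, against a background of 51.4% of 323 miRNAs, and 4 of 5 were so with a pseudocount of 10 RPM, where miR-194b-5p had a log2 ratio of 0.56. Their median log2 ratio was 8.05, and that of all 301 miRNAs with reads in both cell types was 1.1. The ratio of miR-122 was the highest of these 301, and miR-192, miR-194a and miR-215 held ranks 8, 12 and 22, while miR-194b-5p held rank 71. On log2(RPM + 10) over the 245 miRNAs with a mean of at least 10 RPM, the span between the highest and lowest library was 12.80 for miR-122, the second widest, and 8.33, 5.95 and 4.82 for miR-192, miR-194a and miR-215, against a median of 3.01.

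PEBs compared with PFFs in the same way. miR-122 was 13076-fold (10867 to 15880) higher in PEBs, again the highest ratio of all, here among 298 miRNAs with reads in both. miR-192 was 315-fold (276 to 360), miR-194a 168-fold (135 to 211), miR-215 47.6-fold (38.1 to 60.2) and miR-194b-5p 2.67-fold (1.57 to 4.59) higher. This made 5 of 5 over 2-fold, against 43.3% of 323 miRNAs, with a median log2 ratio of 7.39 against 0.77 for all. miR-194b-5p lost the 2-fold mark, leaving 4 of 5, with TMM (log2 ratio 0.51), DESeq2 size factors (0.41), upper quartile factors (0.60), totals without the top miRNA (0.65) or a pseudocount of 10 RPM (0.19). The others stayed over 2-fold in each of these. Each ratio is from 1 library per cell type and has counting error only. The intervals do not cover the choice of scaling. With DESeq2 size factors the log2 ratios were 12.67 in place of 13.67 for miR-122 and 7.29 in place of 8.30 for miR-192. They were 6.38 in place of 7.39 for miR-194a and 4.57 in place of 5.57 for miR-215.

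When ES-like cells and PEBs were compared, the members differed by 1.59- to 2.49-fold. miR-122 was 1.87-fold (1.86 to 1.87) higher in ES-like cells, miR-192 2.24-fold (2.21 to 2.27), miR-194a 1.59-fold (1.53 to 1.64), miR-215 1.91-fold (1.79 to 2.03) and miR-194b-5p 2.49-fold (1.55 to 3.98). Only miR-192 and miR-194b-5p passed 2-fold, 2 of 5 against a background of 26.8% of 314 miRNAs. All 5 were higher in ES-like cells under each scaling tried, but none passed 2-fold with TMM or upper quartile factors. With TMM the log2 ratio of miR-122 was 0.41 and that of miR-194a 0.17, against 0.90 and 0.67 on RPM, while the median of all 301 miRNAs moved from 0.23 to -0.27. The members' median log2 ratio on RPM was 0.93.

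**Figure D2:**
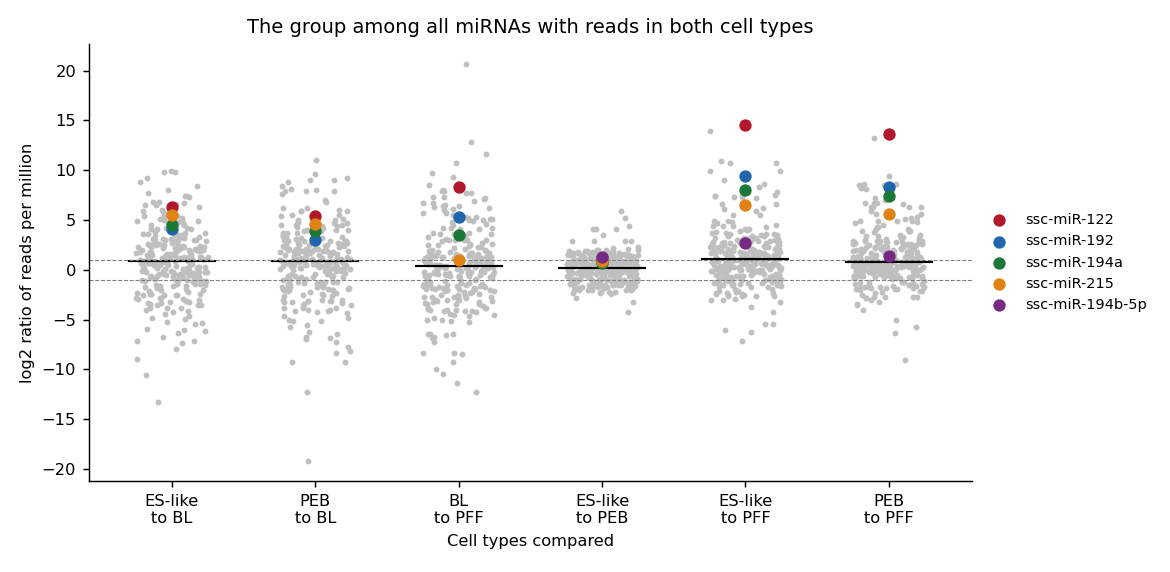
log2 ratio of RPM (y axis) for 6 pairs of cell types, with both BL libraries averaged; grey points are all other miRNAs with reads in both cell types, black bars the median of all and dashed lines a 2-fold difference. The members lie between 2.73 and 14.58 for ES-like cells to PFFs, and between 0.67 and 1.31 for ES-like cells to PEBs.

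BLs had the only replicates, and each other cell type was compared with them in a single edgeR fit of counts with TMM factors, with 1 residual degree of freedom. The spread between BL_1 and BL_2 is taken for the single libraries too, so its calls compare these libraries and cannot speak for the cell types, and calls near the threshold are weak. On simulated data this fit made more false calls than the nominal share, so its adjusted p-values are taken as too small. Of its comparisons only that of PFFs with BLs was simulated. The 3 comparisons share the BL libraries. On RPM, miR-122 was 77.6-fold higher in ES-like cells than the mean of BLs, with 57.2-fold against BL_1 and 121-fold against BL_2. miR-192 was 17.6-fold higher than the mean, with 35.5-fold against BL_1 and 11.7-fold against BL_2. miR-194a was 23.4-fold higher than the mean. With upper quartile factors the log2 ratios to the mean were smaller, with 4.84 in place of 6.28 for miR-122. They were 2.71 in place of 4.14 for miR-192 and 3.12 in place of 4.55 for miR-194a. miR-215 was 22.9-fold higher than in BL_2 and at least 10.3-fold higher than the limit in BL_1, and the ratio to the mean, 45.8-fold, takes the 0 reads of BL_1 as a level of 0. On that reading 5 of 5 passed 2-fold, against 53.6% of 319 miRNAs, and 4 did so with a pseudocount of 10 RPM. miR-194b-5p, the fifth, had no read in BLs and lay below the limit of BL_1, so that a 2-fold difference from the BL mean is not shown for it. The median log2 ratio of the 4 with reads in both was 5.03, against 0.94 for all 271 such miRNAs.

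By edgeR's quasi-likelihood test with Benjamini-Hochberg adjustment over 279 miRNAs, 4 of 5 members were called higher in ES-like cells than in BLs, against 17.2% of all. For miR-122 the log2 fold change was 5.59, with a standard error of 1.12 (edgeR, adjusted p = 4.54e-05). miR-215 had 3.82 (1.41, adjusted p = 0.0356), miR-194a 3.50 (1.35, adjusted p = 0.0445) and miR-192 3.07 (1.22, adjusted p = 0.0497). miR-194b-5p was not called (adjusted p = 0.0858), and its 39 reads against none in BLs gave no usable fold change. It passed with library totals as the only scaling and without the read filter (edgeR, adjusted p = 0.0299 and 0.0440). The calls of miR-192 and miR-215 lay near the threshold and were lost with limma voom (adjusted p = 0.0632 and 0.0677), while those of miR-122 and miR-194a were kept. Over all 6 alternatives the adjusted p ran from 1.33e-09 to 0.0632 for miR-192 and from 1.20e-05 to 0.0677 for miR-215 (edgeR, DESeq2 and limma), so the size of these p-values depends on the method far more than the fold changes do.

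In PEBs, miR-122 was 41.5-fold higher than the mean of BLs, with 30.6-fold against BL_1 and 64.7-fold against BL_2. miR-192 was 7.87-fold higher than the mean, with 15.9-fold against BL_1 and 5.23-fold against BL_2. miR-194a was 14.7-fold higher than the mean. Upper quartile factors gave log2 ratios to the mean of 4.37 in place of 5.38 for miR-122. For miR-192 they gave 1.99 in place of 2.98, and for miR-194a 2.89 in place of 3.88. miR-215 was 12.0-fold higher than in BL_2 and at least 5.40-fold higher than the limit in BL_1, against 24.0-fold for the mean with BL_1 at 0. Counted with 0 reads as a level of 0, 5 members passed 2-fold, with a background of 52.7% of 319 miRNAs, and 4 did so with a pseudocount of 10 RPM. A 2-fold difference is not shown for miR-194b-5p, at 2.46 RPM in PEBs against limits of 26.4 and 1.08 RPM in BL_1 and BL_2. The median log2 ratio of the 4 with reads in both cell types was 4.23, against 0.86 for 268 miRNAs. miR-122 was the only member that edgeR called higher in PEBs, by 4.89 on the log2 scale (SE 1.1, adjusted p = 0.000307), which is 1 of 5 against 18.6% of 279 miRNAs. The adjusted p was 0.0732 for miR-194a, 0.0793 for miR-215 and 0.185 for miR-192, with log2 fold changes of 3.02, 3.08 and 2.10. These 3 were called, making 4 of 5, with DESeq2, with each of 3 other scalings of the edgeR fit and without the read filter, but not with limma voom. Those 5 settings called between 110 and 176 miRNAs in both directions, against 79 in the fit with TMM, so the 18.6% is not the background of the 4 of 5.

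PFFs lay below BLs for the abundant members. On RPM the mean of BLs was 315-fold that of PFFs for miR-122, 40.0-fold for miR-192 and 11.4-fold for miR-194a. BL_1 and BL_2 alone gave 427-fold and 202-fold for miR-122, and 19.8-fold and 60.2-fold for miR-192. With TMM factors the log2 ratios of the BL mean to PFFs were 7.58 in place of 8.30 for miR-122. They were 4.73 in place of 5.32 for miR-192 and 2.88 in place of 3.51 for miR-194a. miR-215 missed the 2-fold mark at 1.98-fold, which it passed with upper quartile factors or the largest precursor row, with no read in BL_1 and 3.96-fold (2.56 to 6.01) in BL_2 alone. These 3 of 5 compare with 36.5% of 323 miRNAs over 2-fold higher in BLs. Of BLs and PFFs, miR-194b-5p had reads in PFFs alone, at a level below the limits of both BL libraries, so no direction can be given. The median log2 ratio of the 4 with reads in both was 4.41, against 0.35 for 273 miRNAs.

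edgeR called 2 of 5 members lower in PFFs than in BLs, against 15.4% of 279 miRNAs. miR-122 fell by 7.88 on the log2 scale (SE 1.65, adjusted p = 4.71e-05, edgeR) and miR-192 by 5.29 (1.69, adjusted p = 0.0102, edgeR). miR-194a had a log2 fold change of -3.46 (adjusted p = 0.0951, edgeR), which passed with DESeq2, limma voom and each other edgeR setting tried. miR-215 had a log2 fold change of -1.59 (adjusted p = 0.462, edgeR).

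The study also grouped BLs and ES-like cells as pluripotent and PEBs and PFFs as differentiated cells. In that comparison edgeR called 0 of 5 members and 0% of the 279 miRNAs, with 21 miRNAs at an unadjusted p under 0.05 and 14 called by DESeq2, none of them a member. DESeq2 gave no adjusted p for miR-122, so it could not have called it. The log2 fold changes of the members ran from 0.10 to 0.68 with standard errors from 1.70 to 2.51 and adjusted p from 0.946 to 0.983 (edgeR). Their signs were not stable: that of miR-122 was -0.34 without the read filter. With a library left out it ran from -4.32 without ES-like cells to 11.74 without PEBs. The members' levels do not divide this way: the high libraries, ES-like cells and PEBs, fall into different groups, and so do the low ones, BLs and PFFs.

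Whether miR-192, miR-194 and miR-215 follow miR-122 was examined within each library, as the share of a miRNA in the sum of its own and the miR-122 reads. Such a share does not depend on the scaling between libraries. The share of miR-192 was 5.54% (95% exact interval 5.49 to 5.60%) in ES-like cells, against 4.67% (4.63 to 4.71%) in PEBs. miR-194a had 0.781% (0.760 to 0.803%) and 0.918% (0.898 to 0.939%), and miR-215 had 0.268% (0.256 to 0.281%) and 0.263% (0.252 to 0.274%). The intervals of miR-215 overlapped, those of miR-192 and miR-194a did not, and miR-192 moved down from ES-like cells to PEBs while miR-194a moved up.

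The proportions in PFFs and BL_2 differed from these beyond counting error. In PFFs miR-192 had 67.1% (61.8 to 72%) and outnumbered miR-122, with 228 reads against 112. miR-194a and miR-215 had 42.0% (34.9 to 49.3%) each in PFFs, and miR-194b-5p had 18.2% (12.2 to 25.8%) there against 0.00606% in ES-like cells. In BL_2 miR-192 had 37.7% (36.2 to 39.3%), miR-194a 4.75% (3.94 to 5.67%) and miR-215 1.4% (0.964 to 1.96%), each above its share in ES-like cells. In BL_1 miR-192 had 8.64% (5.28 to 13.2%), miR-194a 1.47% (0.304 to 4.24%) and miR-215 0% (0 to 1.82%). These intervals, wide at the depth of BL_1, each included the share in ES-like cells, but that of miR-192 lay above its share in PEBs. The BL replicates thus differed in the proportion of miR-192 to miR-122 by more than counting error.

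**Figure D3:**
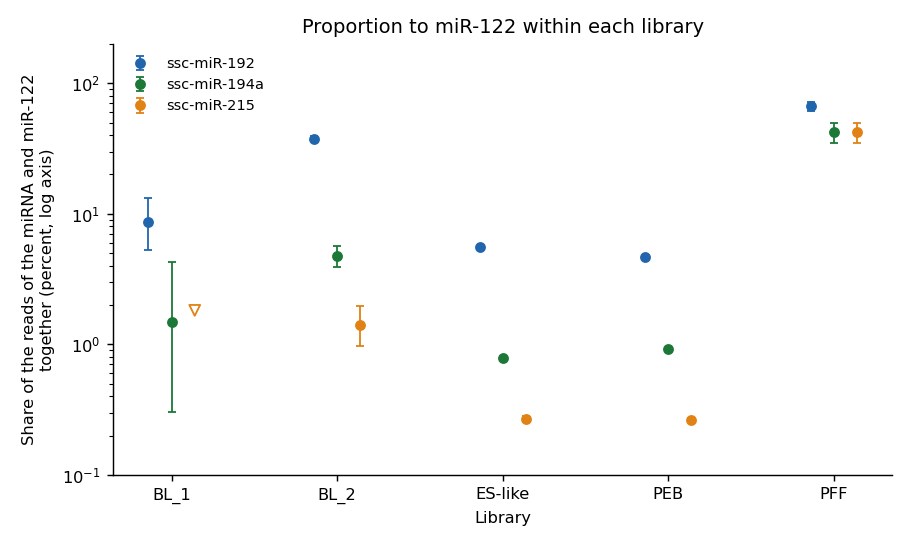
Share of each miRNA in the sum of its own and the miR-122 reads (percent, log axis) in the 5 libraries, with 95% exact intervals; the open triangle is the upper bound for miR-215 in BL_1, which had no read. The shares of miR-192 are 5.54% and 4.67% in ES-like cells and PEBs, and 67.1% in PFFs.

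The proportions among the other members were compared in the same way. miR-194a had 11.8% (11.5 to 12.1%) of the summed reads of miR-194a and miR-192, its neighbour, in ES-like cells, 15.9% (15.6 to 16.2%) in PEBs, 7.60% (6.32 to 9.05%) in BL_2, 13.6% (2.91 to 34.9%) in BL_1 and 26.2% (21.4 to 31.5%) in PFFs. Over the 5 libraries the number of miR-192 reads per miR-194a read ranged from 12.2 in BL_2 to 2.81 in PFFs, while that of miR-122 reads per miR-194a read ranged from 127 in ES-like cells to 1.38 in PFFs. miR-215 had 4.38% (4.18 to 4.59%) of the reads of miR-215 and miR-192, which share a seed, in ES-like cells, 5.10% (4.90 to 5.31%) in PEBs, 2.29% (1.58 to 3.20%) in BL_2 and 26.2% (21.4 to 31.5%) in PFFs. miR-194b-5p had 2.20% (1.57 to 3.0%) of the reads of miR-194b-5p and miR-215, its neighbour, in ES-like cells, 1.70% (1.21 to 2.32%) in PEBs and 23.6% (15.9 to 32.8%) in PFFs. miR-194b-5p had 0.764% (0.544 to 1.04%) of the reads of both miR-194 relatives in ES-like cells, 0.488% (0.348 to 0.667%) in PEBs and 23.6% (15.9 to 32.8%) in PFFs. In each pair the rarer member had its highest measured share in PFFs, where the counts were between 25 and 228. BL_1 is too shallow to be ordered against PFFs in most of these pairs. Its interval for miR-194a with miR-192 included the share in PFFs, and that for the miR-194 relatives reached 70.8%. It had no read of miR-194b-5p or miR-215.

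Likeness to miR-122 was also ranked over all miRNAs, as the root mean square difference between profiles of log2(RPM + 10) over the 5 libraries, each centred on its own mean. Among 244 miRNAs with a mean of at least 10 RPM, miR-192 was the nearest to miR-122, with a difference of 1.90. With a pseudocount of 100 in place of 10 it was the 4th, with 1.77, and miR-363 was nearest, with 1.48. With the pseudocount of 10, miR-194a was the 10th, with 2.51, and miR-215 the 17th, with 3.15, against a median of 4.46 over all. The members were more like each other than like miR-122: miR-194a differed from miR-192 by 0.960 and from miR-215 by 0.671, and miR-192 from miR-215 by 1.53. Other miRNAs were nearer still to each of them. From miR-192, miR-194a held rank 2 of 244 and miR-215 rank 10. From miR-194a, miR-215 held rank 3 and miR-192 rank 10. From miR-215, miR-194a held rank 6 and miR-192 rank 79. Seen from miR-194a, miR-122 held rank 162 of 244, seen from miR-215 rank 221 and seen from miR-192 rank 23. miR-194b-5p was below the minimum level and was not ranked.

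The 5 miRNAs nearest to miR-122 outside the group were miR-224, miR-452, miR-34c, miR-20b and miR-429, with differences from 2.17 to 2.45. miR-34c is a known target of p53, miR-20b belongs to the miR-106a-363 cluster and miR-429 to the epithelial miR-200 family. miR-34c had 12749 RPM in ES-like cells, 15298 in PEBs, 862 in BL_1, 1467 in BL_2 and 191 in PFFs, and it was the only one of the 5 that was higher in PEBs than in ES-like cells. miR-224 had 2782 RPM in ES-like cells against 832 in PEBs, and miR-452 had 5526 against 2021 RPM. Both had 2.88 RPM in PFFs. miR-429 had 1199 RPM in ES-like cells and 718 in PEBs, against 0.0739 in PFFs.

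**Figure D4:**
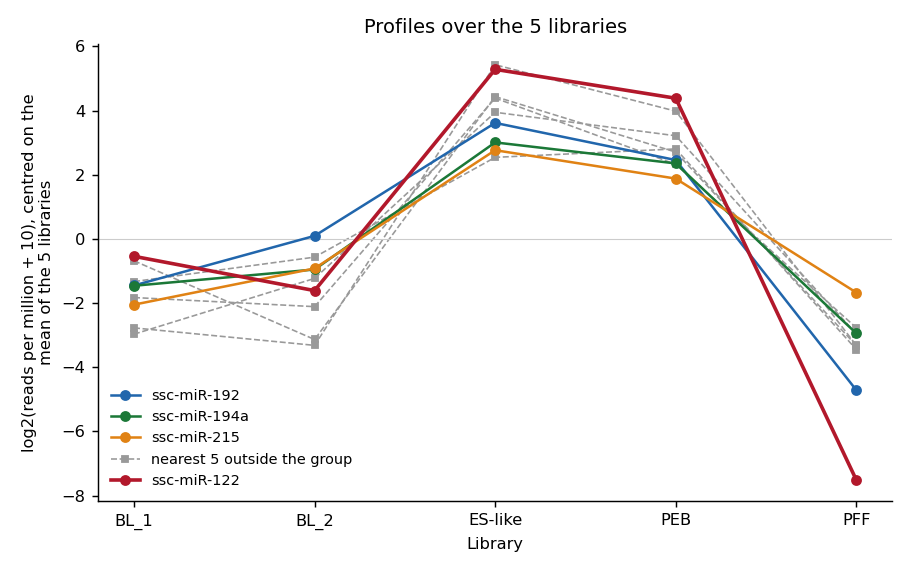
Profiles of log2(RPM + 10), each centred on its own mean over the 5 libraries (y axis), for miR-122, miR-192, miR-194a, miR-215 and the 5 nearest miRNAs outside the group. All are highest in ES-like cells except miR-34c, highest in PEBs, and all are lowest or near their lowest in PFFs, where miR-122 reaches -7.52 and miR-192 -4.72.

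Of 7 other markers known from liver, gut or pancreas, miR-375 and miR-802 had no row in the table used here, and the other 5 were present with 7 names. Their summed level was 15429 RPM in PFFs, 22305 and 32908 in BL_1 and BL_2, 61423 in PEBs and 162427 in ES-like cells, the order of cell types seen for miR-122, and most of it was miR-148a-3p. miR-148a-3p, abundant in liver, was highest in ES-like cells with 160140 RPM, but had 59744 RPM in PEBs, 22155 in BL_1, 32734 in BL_2 and still 15316 in PFFs. miR-148a-5p kept the same order of cell types, from 89.2 RPM in PFFs through 149 and 163 RPM in the BL libraries and 534 in PEBs to 1935 in ES-like cells. The other names did not. miR-216 and miR-217, known from the exocrine pancreas, were highest in PEBs with 5.93 and 34.8 RPM, against 0.628 and 1.88 RPM in ES-like cells. miR-31 was also highest in PEBs, with 1104 RPM against 349 in ES-like cells and 23.1 in PFFs. miR-885-5p, known from liver, had at most 14 reads in a library.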

How the data were processed

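The authors removed adapters with Cutadapt 1.10, aligned and quantified reads with Bowtie 1.1.1, SAMtools 1.2 and HTSeq 0.6.1p1 on the pig genome (Sscrofa10.2), and sorted miRNAs into reported and new ones with miRDeep2 and miRBase. Tool versions and build are from the submitters' processing notes. The deposited values were raw read counts per mature miRNA and precursor, without normalization. Counts were summed over precursor rows (each member had 1) and divided by the library's total over all rows. In all, 66 mature names had several rows, and reads listed in more than 1 row count more than once in that total. BLs were taken as the mean of BL_1 and BL_2, and the 2-fold rule followed the study. Its own normalization, Tag Count Comparison, was not used here.

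Tests were edgeR 4.0.16 quasi-likelihood fits (R 4.3.3, TMM, a minimum of over 5 reads in 3 or more libraries, Benjamini-Hochberg adjusted p under 0.05), with DESeq2 1.42.0 and limma 3.58.1 as alternatives. Standard errors are the log2 fold change divided by the root of the F statistic. The edgeR step was tested on simulated data, where false calls exceeded the nominal share for PFFs against BLs, the only comparison with BLs that was simulated. p-values against BLs measure only the spread between the 2 BL libraries, which may be technical. Intervals are exact binomial (scipy 1.17.1), at 95%, and cover counting error only, since PCR reads are not independent molecules.

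The members, marker lists and tests were chosen with earlier results of these data known. Text names all members, the 5 miRNAs nearest to miR-122 and the liver, gut and pancreas list. Epithelial (2 of 7 markers with a row) and muscle lists were summed too, and reached 5777 RPM in BL_2 and 2630 RPM in BL_2 at most. Mature sequences and the table of predicted loci were not used here. Sums, intervals and plots were made in Python 3.11.15 (pandas 2.3.3, numpy 2.4.6, matplotlib 3.10.9).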

Additional observations from a re-analysis of the deposited data

How the results depend on the processing

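BL_1 limits the rare members: at its depth 3 counts are 26.4 RPM, above every BL level of miR-215 and miR-194b-5p. Other scalings moved the median log2 ratio of all miRNAs, for ES-like cells to PFFs from 1.1 on RPM to -0.30 with TMM, and for ES-like cells to PEBs from 0.23 to -0.27. For ES-like cells to BLs it moved from 0.94 to 0.19 with TMM and -0.49 with upper quartile factors. For PEBs to BLs it moved from 0.86 to 0.66 and -0.14 in the same way. No paired analysis was possible because only BLs have more than 1 library. Leaving out a BL library leaves the comparisons with BLs no residual degrees of freedom, so these had no test.

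The counts of members over 2-fold kept within 1.5 times under each setting except for ES-like cells over PEBs, where the main 2 became 0 with TMM, 0 with upper quartile factors, 1 with a pseudocount of 10 and 0 with a threshold of 4-fold. No log2 ratio of a member changed sign. Over all member ratios and settings, including those under 2-fold, 101 values were counted as moved beyond the BL spread or the counting interval and 82 were not. miR-215 had no read in BL_1 and so no BL spread, and each of its ratios with BLs was counted as moved whatever the size of the change. The 20 shares with miR-122 cannot change with the precursor choice, since each member has 1 row.

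For ES-like cells against BLs, edgeR called 72 miRNAs, DESeq2 111, and edgeR with DESeq2 size factors, upper quartile factors, library totals and no filter 136, 130, 155 and 154. limma voom called 56. Members called were 4, with 2 for limma voom, 5 for library totals and 5 for no filter. For PEBs, the 79 calls became 138, 135, 151 and 176 under these edgeR settings, and the 1 member became 4 with each of them and 4 with DESeq2, which called 110 miRNAs, while limma voom called 81 and 1 member. For PFFs, the 86 calls became 143, 141, 138 and 165. The cause was not tested.

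For pluripotent against differentiated cells the 0 calls became 14 with DESeq2, and between 0 and 16 when a library was left out, with 16 without ES-like cells. No member was called in any of these, but not all were tested. DESeq2 gave miR-122 no adjusted p, and miR-194b-5p was not tested without ES-like cells, PEBs or PFFs. The log2 fold changes of the members changed sign under some settings. With upper quartile factors they were -0.021 for miR-122 and -0.047 for miR-194a. Without the read filter they were -0.34 for miR-122, -0.45 for miR-194a, -0.24 for miR-194b-5p and -0.27 for miR-215. When a library was left out, they ranged from -4.32 to 11.74 for miR-122, -1.81 to 6.81 for miR-192, -2.71 to 5.36 for miR-194a and -2.97 to 3.77 for miR-215, each lowest without ES-like cells and highest without PEBs.

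The rank of miR-192 in likeness to miR-122 was 1, and 4 with a pseudocount of 100, when miR-363 was nearest. That of miR-194a was 10, and 6 with a pseudocount of 1 or with TMM. That of miR-215 was 17, and 36 with a pseudocount of 100. Without a BL library the ranks were 1, 10 to 13 and 18.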
